A study of Drosophila melanogaster with 3 samples.

Results

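Of the 2740 peaks that the authors thresholded for pb-GFP, 666 (24.3%, exact 95% interval 22.7 to 26%) had their summit inside an intron of a protein-coding gene and away from any promoter. Members were chosen by position alone: the summit lay more than 1000 bp from every start site of a protein-coding gene, within the body of such a gene and in no coding or untranslated exon (dm6, Ensembl release 115). Besides these intronic peaks, the list held 1733 promoter peaks, 301 intergenic peaks and 40 exonic peaks. The study used chromatin immunoprecipitation and sequencing (ChIP-seq) with an anti-GFP antibody on a transgenic Drosophila melanogaster line in which green fluorescent protein is fused to the C terminus of pb. Embryos of 0 to 24 h were collected whole and with the sexes pooled, and the chromatin was sheared to 200 to 800 bp. The 3 libraries are biological replicates of a single group of this 1 line. No untagged or control library was analysed here, so a peak means recovered chromatin and not a tested dependence on the tagged protein.

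The gene pb (proboscipedia) belongs to the Hox family, whose homeodomain proteins bind AT-rich DNA, often together with the TALE homeodomain proteins Exd and Hth, and give body segments their identity. pb itself is best known for its role in forming the adult mouthparts. Introns of Drosophila genes, above all long ones near the 5′ end of developmental regulators, often hold enhancers, the DNA elements that bind transcription factors away from the promoter. Whole embryos mix all cell types, so no peak can be assigned to a tissue.

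The sequences below show what recurred near the intronic summits: the 5-base word CAGTG, picked after counts of words at these summits were seen. Of the 15 strongest members matched in all libraries, 10 held it within 100 bp of the summit. It was present at 56.8% of all 666 summits and in 27.6% of flanking windows, centred 1000 bp away. For the 6 strongest members with a match, each line gives 30 bases of the Release 6 genome (RefSeq, dm6), with the match nearest to the summit in capitals, on the strand that reads CAGTG.
CG11050: cacatattttttCAGTGcacagccacagcg
CG32772: cagccaaatacgCAGTGgctgcgcgttaat
NFAT: gttgctttgccaCAGTGggctagagcgtgc
osa: ccagcttatgtttCAGTGtactgcctcgtt
Raf: ctggcagcaggtaCAGTGaacaccgaacga
Tlk: tgcatgccaaaagCAGTGtaataaaaaatc
The plus strand is shown for CG11050 (chr2L:6612766-6612795), CG32772 (chrX:4910278-4910307) and NFAT (chrX:13640424-13640453). The minus strand is shown for osa (chr3R:17704310-17704339), Raf (chrX:2297784-2297813) and Tlk (chrX:3742233-3742262). Their distances from the summit to the middle of the word were 51, 67, 55, 93, 80 and 11 bp in the order of the lines. The strongest intronic peak, in ush, had no such match, and the 30 bases at its summit (chr2L:481050-481079, plus strand) are shown for contrast.
ush: agtttaagttttatttttcttcacattccc
The Hox-Exd composite TGATNNAT is the site type that a Hox protein and Exd bind together. Matches were found at 70 of the 666 summits (10.5%), against 13.9% of flanking windows. The sites in Lrch (rank 112) and pnt (rank 405) are shown as examples. CG9837, beat-Ib and drongo, at ranks 80, 184 and 347, also had matches and are not shown. Lrch had a match 44 bp from its summit (chr2L:17378914-17378943, plus strand), and pnt had one at 29 bp (chr3R:23326493-23326522, plus strand).
Lrch: ttgctgctgcTGATTAATgtttttcttcca
pnt: cctgattgccTGATATATaaacttgcacgg

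Intronic and promoter peaks had similar ranks and similar shares found in every library. Peaks were ranked by the authors' signal value within each list, with 1 the strongest, and the median rank was 1353 for intronic peaks and 1369 for promoter peaks of the thresholded list. A replicate summit lay within 100 bp in all 3 libraries for 597 intronic peaks (89.6%) and for 87.8% of promoter peaks, where 88.4% of all thresholded peaks did. Among the 2740 highest ranked peaks of all 3 libraries stood 316 intronic peaks (47.4%) and 46.9% of promoter peaks, against 46.7% of all thresholded peaks. Only 13 intronic peaks were among the highest ranked of no library. These shares are close to the background, and the thresholded list was called on the same libraries, so that they are no independent measure of repeatability.

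Within libraries the direction of the difference from promoter peaks was not constant. The share of intronic peaks among a library's 2740 highest ranked was 68.8% in replicate 1, 82.1% in replicate 2 and 71.6% in replicate 3, against 72.4%, 79.0% and 71.8% of promoter peaks. The mean difference was -0.22 percentage points ± 3.36 (SD, n = 3; exact 2-sided sign-flip permutation p = 0.75), and without replicate 1 it was 1.46. Median ranks of the matched intronic peaks were 1551, 1283 and 1472, against 1285, 1397 and 1373 for promoter peaks, a mean difference of 83.7 ranks ± 190.5 (SD, n = 3; exact permutation p = 0.75) that became -7.50 without replicate 1. Neither difference was larger than its spread between libraries, and the exact sign-flip test over 3 libraries cannot give a p below 0.25.

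The intronic share of all peaks was about level within the thresholded list and higher far below the threshold, where the promoter share was lower. From the strongest 500 to ranks 2001 to 2740, intronic peaks made up 22.2%, 25%, 26%, 25.4% and 23.4% of successive groups of the combined list. Promoter peaks made up 65.4% of the strongest 500 and 62.3% of ranks 2001 to 2740. Below the threshold the intronic share was 25.9% at ranks 2741 to 5000 and 30.04% at ranks 20001 to 30000 (interval 29.1 to 30.9%), against 22.2% in the strongest 500 (interval 18.6 to 26.1%), while promoter peaks were 57.0% and 29.2% of these 2 groups below the threshold. Among peaks outside promoters, the intronic share was lower there, 42.4% at ranks 20001 to 30000 against 64.2% in the strongest 500. Exonic peaks were 21.4% and 2.0% of all peaks in these groups. Introns away from promoters made up 36.3% of the sequence. Each library's own 2740 highest ranked peaks held 597, 711 and 669 intronic peaks, a share of 24.1% ± 2.10 (SD, n = 3). Per Mb of sequence that the same position rule would have accepted, sampled every 100 bp and called eligible below, there were 13.7 intronic peaks in 48.6 Mb. The corresponding density was 63.9 per Mb for promoter peaks, 7.95 for intergenic peaks and 1.98 for exonic peaks.

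The strongest intronic peak was the second strongest of the whole list and lay in ush, which encodes a zinc finger cofactor of GATA factors. It spanned chr2L:480881-481307 in intron 1 and ranked 4, 2 and 2 in the 3 libraries. The nearest start site, 1376 bp away, belonged to the gene cbt and lay within the gene body of ush. In CG11050, a peak at chr2L:6612503-6612914 ranked 10, 6 and 5, and in CG32772 a peak at chrX:4910191-4910534 ranked 18, 15 and 14. These 3 peaks kept a place among the 20 strongest of every library. NFAT, of a family of calcium-responsive transcription factors in other animals, held a peak in intron 1 at chrX:13640352-13640680 with ranks 47, 30 and 28. osa, a subunit of the Brahma chromatin remodelling complex, held one in intron 4 at chr3R:17704253-17704567, ranked 41, 33 and 38, whose nearest coding start site was 13933 bp away. A start site of a non-coding RNA lay 722 bp from that summit.

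The other 10 of the 15 strongest members found in all libraries lay in genes of varied kinds. Raf, the kinase that acts downstream of Ras, held a peak ranked 34, 41 and 74, and Tlk, a kinase of chromatin assembly, held one ranked 80, 54 and 47. Trl encodes GAGA factor, which binds GA-rich promoters and opens chromatin, and its peak ranked 104, 74 and 34. In cno, the adherens junction protein Canoe, the ranks were 52, 93 and 49. In norpA, the phospholipase C of phototransduction, they were 73, 99 and 94, and in for, a cGMP-dependent protein kinase, 146, 92 and 89. The remaining hosts were CG32486, CG3726, CG9837 and Pits, with ranks between 45 and 149 in the libraries. Of these 15 peaks, 9 lay in intron 1, 10 within 2000 bp of a coding start site and 7 on chromosome X.

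**Figure D1:**
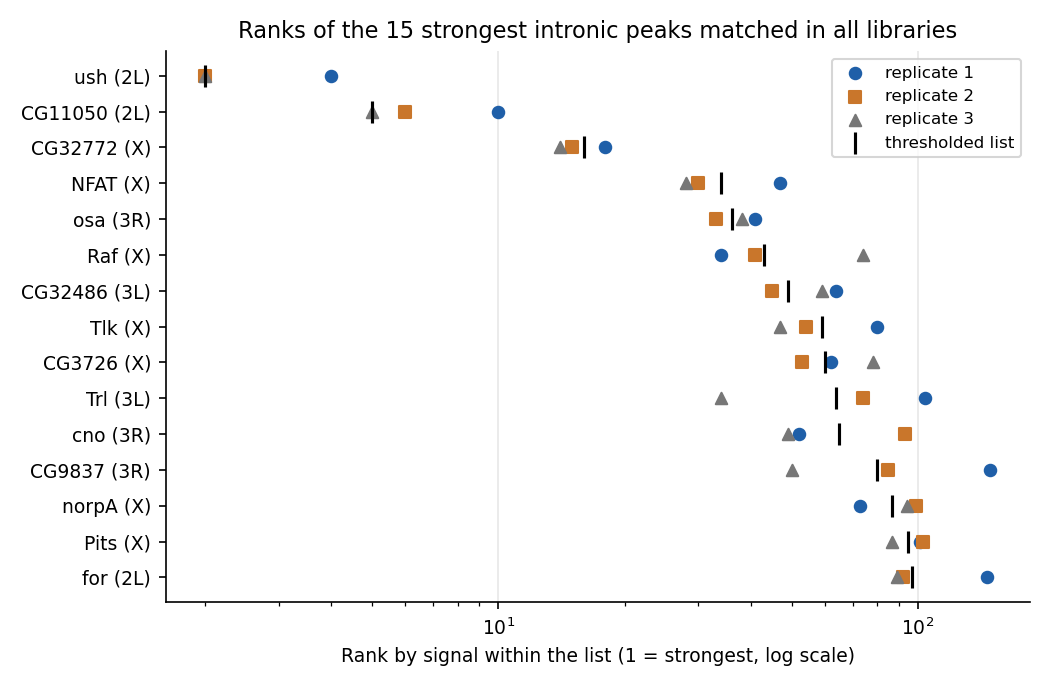
Rank by signal (log scale, 1 is the strongest) of the 15 strongest intronic peaks matched in all 3 libraries, 1 row per peak with its host gene and chromosome arm. Symbols give the rank in each replicate and the bar the rank in the thresholded list, and the peaks in ush, CG11050 and CG32772 stand at or above rank 18 in every library.

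A larger share of intronic peaks than of intron sequence lay near start sites. Their median distance to the nearest coding start site was 3516 bp (quartiles 1810 and 6879 bp, range 1005 to 49805 bp), against 7312 bp for eligible intron sequence. The density fell with distance: it was 38.3 peaks per Mb at 1000 to 1250 bp, 18.4 at 2000 to 5000 bp, 7.47 at 10000 to 20000 bp and 2.92 beyond 20000 bp. Within 2000 bp stood 29.6% of members (exact 95% interval 26.1 to 33.2%) and 13.1% of eligible sequence. In the libraries' own lists of highest ranked peaks that share was 26.3%, 28.3% and 31.2% (mean 28.6% ± 2.49, SD, n = 3). At the limit of the rule, the 2 members closest to a start site were in C3G at 1005 bp (rank 751) and in chif at 1009 bp (rank 127). Just outside it were peaks in introns of drongo at 999 bp (rank 1288) and Ndae1 at 998 bp (rank 2504). These peaks differ from the members in the distance alone.

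Intron 1 held 330 of the 666 summits (49.5%, interval 45.7 to 53.4%) but 27.9% of eligible sequence. Introns were numbered along the longest transcript that has an intron at the summit. Intron 2 held 208 summits, and later introns held 128 (19.2%, interval 16.3 to 22.4%) with 44.9% of the sequence. The share in intron 1 was 48.2%, 49.8% and 49.3% in the highest ranked intronic peaks of the 3 libraries. By length, density was highest in introns of 5000 to 10000 bp, at 21.6 peaks per Mb, and was 8.79 in introns up to 2500 bp and 7.00 in those over 50000 bp. The median host intron was 13140 bp long, and the longest, 132737 bp. Position near a start site and position in intron 1 overlap, and their separate parts were not tested.

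**Figure D2:**
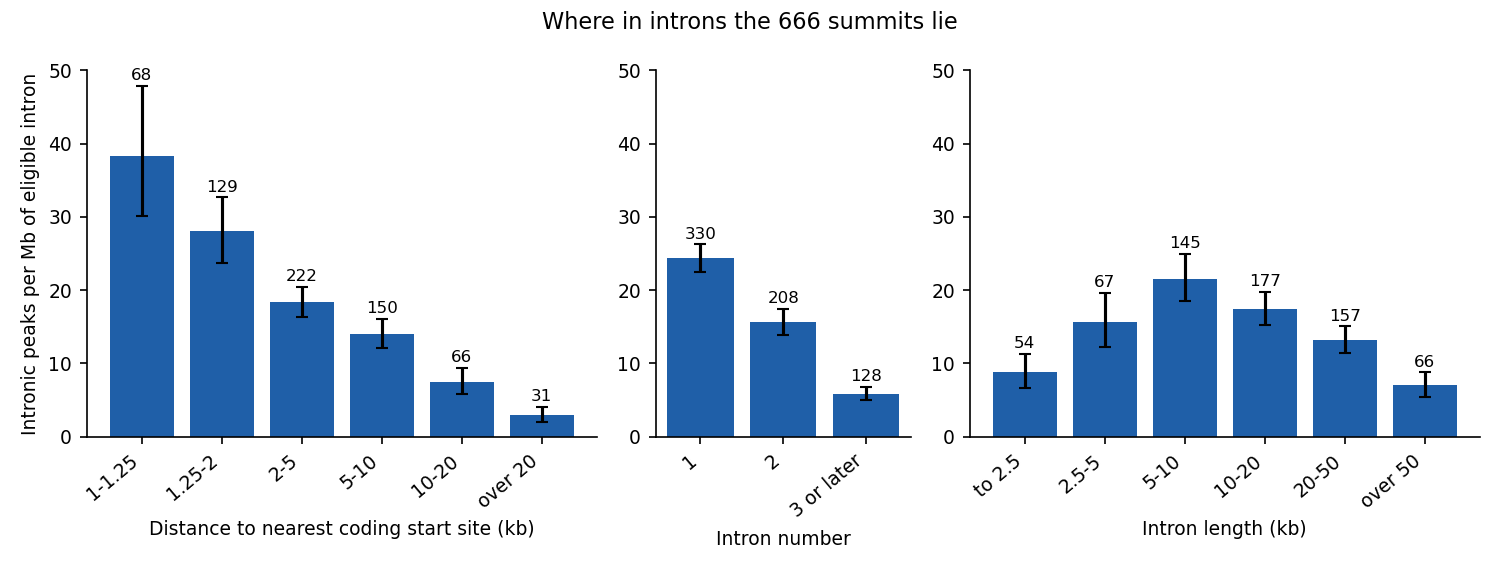
Intronic peaks per Mb of eligible intron by distance to the nearest coding start site, by intron number and by intron length, with the number of peaks above each bar and exact 95% intervals that cover the counting of peaks only. Density falls from 38.3 per Mb at 1000 to 1250 bp to 2.92 beyond 20000 bp, and from 24.4 per Mb in intron 1 to 5.87 in introns 3 and later.

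Few intronic summits fell in repeats. A single summit (0.15%, interval 0.0038 to 0.83%) lay in an annotated transposable element, which made up 7.17% of eligible intron sequence, and 1.95% of summit windows were repeat-masked over more than 50% of their length, against 10.1% of the sequence. How reads from repeats were placed is not given in the sources used here, and its part in these shares was not tested. Start sites of non-coding RNA genes lay within 1000 bp of 34 summits (5.11%, interval 3.56 to 7.06%), against 2.40% of the sequence. Chromosome X carried 171 members (25.7%, interval 22.4 to 29.2%) on 18.3% of the sequence, or 19.2 peaks per Mb, and arms 2L, 2R, 3L and 3R carried 12.2 to 13.1 per Mb. The share on X was 23.9%, 24.6% and 22.1% in the libraries' own highest ranked intronic peaks (mean 23.6% ± 1.29, SD, n = 3). No member lay on the fourth chromosome, whose 0.526 Mb of eligible intron is 1.08% of the total, and 0 of 666 allows a share of up to 0.552% (exact interval).

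The 666 peaks lay in 448 genes, or 6.99% of the 6406 coding genes with eligible intron sequence. Because 27 summits lay in more than 1 gene body, the peaks make 695 pairs of peak and host. A single intronic peak was found in 303 host genes, at least 2 in 145, and at least 4 in 16. The nearest coding start site belonged to the host for 532 members (79.9%) and to another gene for 134. In 296 cases another thresholded peak lay within 5000 bp.

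A larger share of genes with an intronic peak than of other genes had a peak at their own promoter, a difference that was not tested. A thresholded summit lay within 1000 bp of a start site of 189 of the 448 hosts (42.2%, interval 37.6 to 46.9%) and of 1160 of the 5958 other eligible genes (19.5%, interval 18.5 to 20.5%), where 21.1% of all eligible genes had such a peak. The order was the same among genes of like eligible intron length. With up to 5000 bp, 35.2% of 91 hosts and 18.9% of 4630 other genes had a promoter peak. With 5000 to 20000 bp these shares were 38.9% of 162 hosts and 22.5% of 855 others, and with more than 20000 bp, 48.2% of 195 hosts and 19.9% of 473 others. With the 1370 strongest thresholded peaks alone, where both kinds of peak are fewer, the shares were 28.04% of 271 hosts and 10.3% of 6135 other genes. Long genes have more start sites, which was not separated from the length of their introns.

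Raf held more intronic peaks than any other gene, 9 within 31.8 kb of chromosome X, and 8 of the 9 were among the 2740 highest ranked peaks of all 3 libraries. Beyond the strongest, named above, the peak at 5.24 kb from the 5′ end ranked 178, 220 and 166, and the peak at 8.60 kb ranked 315, 258 and 143. The weakest, at 26.6 kb, ranked 3721, 3876 and 4253. shn, a zinc finger repressor that acts in Dpp signalling, held 8 peaks, the strongest with ranks 749, 367 and 844, but only 3 were among the highest ranked of all 3 libraries. Another of its peaks, rank 1428 in the thresholded list, ranked 894, 10785 and 21783, so that replicate 1 alone placed it high. Hr4, a nuclear receptor of the ecdysone response, held 7 peaks, and its strongest ranked 63, 96 and 242.

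kirre, an immunoglobulin superfamily protein of myoblast fusion, and sbb, a transcriptional corepressor, also held 7 intronic peaks each. The eligible intron of kirre is 318 kb long and that of sbb 53.1 kb, which gives 0.220 and 1.32 peaks per 10 kb, compared with 2.59 in Raf. CHES-1-like, a forkhead gene, and Tlk tied for the sixth place with 6 peaks, at 4.72 and 1.29 per 10 kb. Of these 7 genes, Hr4 and kirre had no thresholded peak within 1000 bp of their own start sites.

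**Figure D3:**
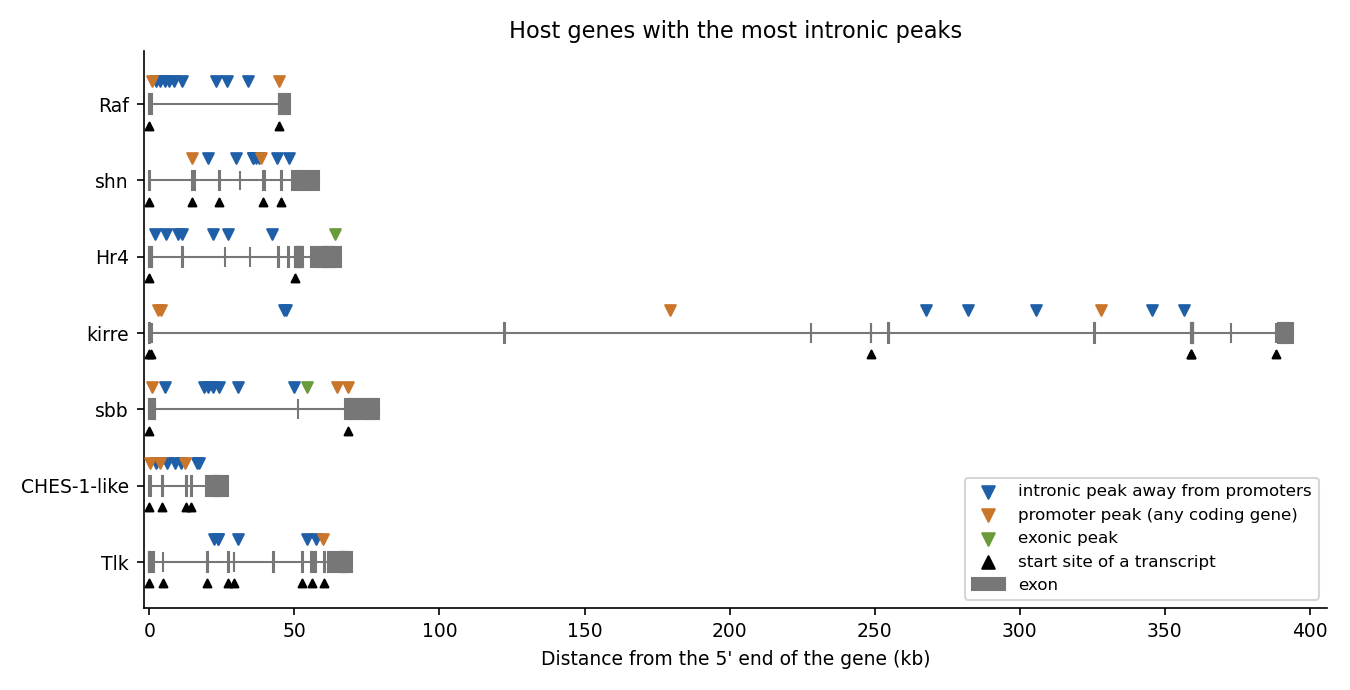
The 7 host genes with the most intronic peaks, drawn from their 5′ end in kb, with intronic peaks away from promoters (blue), promoter peaks of any coding gene (orange) and exonic peaks (green) above each gene, exons as boxes and transcript start sites as triangles below. The 9 intronic peaks of Raf stand mostly near its 5′ end, with 6 of them within 11.1 kb of it, and those of kirre are spread over 310.5 kb.

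Intronic peaks were looked for in 17 lists of genes, and between them 54 of 238 distinct genes held a member. The 238 include genes without eligible intron, and the counts of each list below are out of its genes with eligible intron. These counts stand beside 6.99% of all eligible genes and 13.7 peaks per Mb, since developmental genes have long introns. Peaks per Mb takes the amount of eligible sequence into account, but not intron length or distance from start sites. Over all members, density was 38.3 per Mb at 1000 to 1250 bp from a start site and 2.92 beyond 20000 bp. It was 7.00 in introns over 50000 bp. The part of these differences in the order of the lists was not tested. No test was made of any list, and the lists were chosen with earlier results of these data known. A density above that of all genes is therefore a description and no independent result. With each peak given to the gene of the nearest coding start site, 48 listed genes held a member. Requiring a place among the 2740 highest ranked peaks of both other libraries left 395 members without replicate 1, 351 without replicate 2 and 399 without replicate 3, and 37, 42 and 42 of the 54 listed genes.

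BMP signalling had an intronic peak in 5 of 10 eligible genes, 15 peaks or 105.9 per Mb. They were wit, a type II receptor (ranks 535, 261 and 307), dpp, the main ligand (332, 449 and 618), shn, Dad, an inhibitory Smad, and sog, a secreted antagonist. shn held 8 of the 15 peaks, so that most of the peaks of the list are in that gene. EGF receptor and Ras signalling had 5 of 13 genes, 15 peaks or 65.7 per Mb, of which Raf held 9. The others were aos, a secreted inhibitor of the receptor (ranks 219, 113 and 98), aop, the repressor Yan (189, 334 and 557), pnt, the ETS activator that competes with Yan, and vn, a ligand. All 10 genes of these lists remained when any 1 replicate was left out.

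The ecdysone response had 5 of 11 genes with 18 peaks, 39.6 per Mb. Hr4 was followed by Eip75B with 5 peaks (strongest ranked 174, 175 and 339), by Hr3 with 3 (strongest ranked 308, 466 and 368), and by EcR, the hormone receptor, with 1 (413, 585 and 499). ftz-f1 held 2, the stronger ranked 4294 and 2315 in replicates 1 and 2, with no summit within 100 bp in replicate 3. Leaving out any 1 replicate left 4 of the 5 genes. The Polycomb and trithorax group had 5 of 19 genes with 7 peaks on little eligible sequence, 0.069 Mb, which makes 101.4 per Mb. osa and Trl were named above, and Psc, a subunit of Polycomb repressive complex 1, had ranks 877, 601 and 689, so that this peak held a like place in each library. trx had ranks 1013, 921 and 981, and ph-p had 2623, 989 and 1165.

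Other lists held fewer peaks. Notch signalling had 4 of 10 genes, led by the receptor N (ranks 405, 277 and 278), mam (1009, 488 and 353) and neur (949, 576 and 739), and Wnt signalling had only fz (324, 207 and 196). Insulin and TOR signalling had only InR, the insulin receptor (229, 537 and 317). Segment polarity had nkd and ptc among 11 genes. Mesoderm and muscle regulators had Mef2, with 3 peaks, and nau among 14, and appendage and mouthpart patterning had Lim1 and bab1 among 15. Neuroblast temporal factors had grh and mamo among 11.

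Neural lists had long introns and few peaks per Mb, which was not particular to them. Appendage and mouthpart patterning had 6.66 per Mb, Hox cofactors and TALE homeobox genes 6.58 and neuroblast temporal factors 6.39. Axon guidance and neural adhesion had 8 of 24 genes but 7.55 peaks per Mb. Its strongest peaks were in sli (ranks 467, 388 and 439), NetB (296, 2770 and 563) and Fas3 (675, 1062 and 723). With each peak given to the gene of the nearest coding start site, 5 axon guidance genes held one. Neural RNA-binding proteins had 5 of 14 genes at 7.39 per Mb, led by mbl, sm and pum, and ion channels had Elk and Ih among 21 at 2.63 per Mb. Leaving out replicate 1, 2 or 3 as above left 4, 5 and 5 of the 8 axon guidance genes and 2, 3 and 3 of the 5 RNA-binding genes. The same removals left 0, 0 and 1 of the 2 appendage genes, 1 of the 2 mesoderm genes each time, 1, 2 and 1 of the 2 temporal genes and 1, 1 and 2 of the 2 channel genes. The insulator list had 0 of 6 genes on 0.0044 Mb of eligible intron, too little sequence to hold a peak at the average density.

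**Figure D4:**
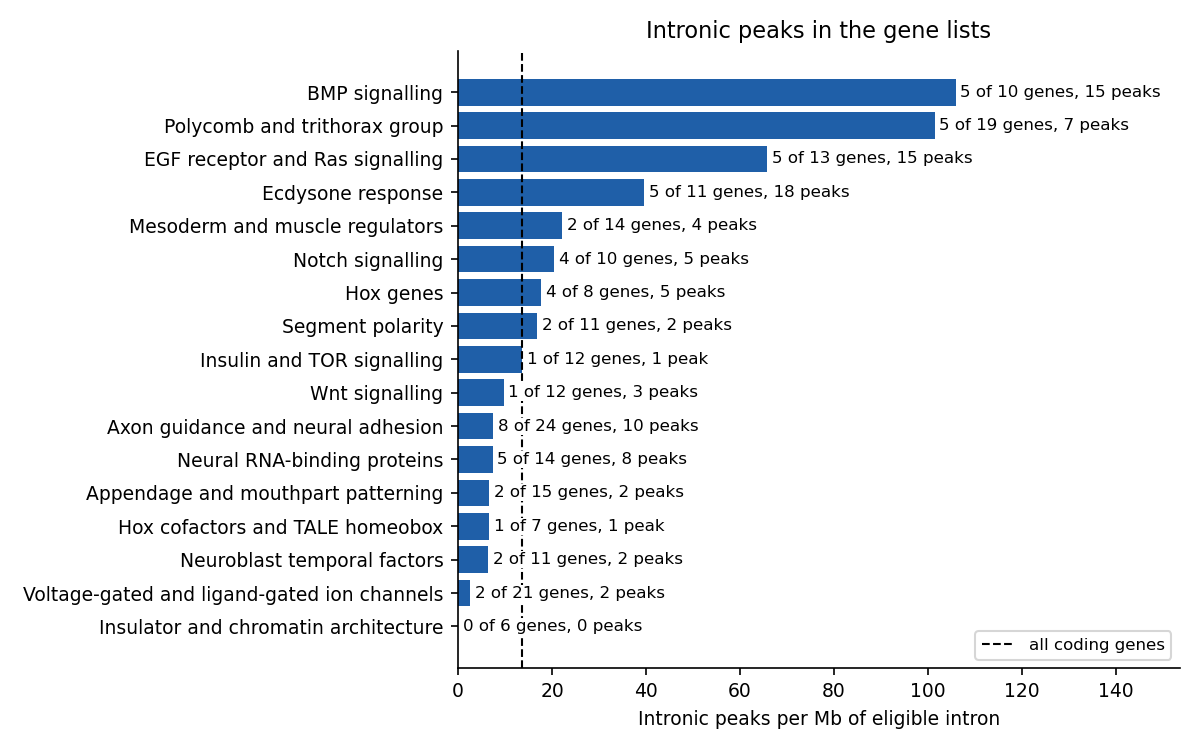
Intronic peaks per Mb of eligible intron in the 17 gene lists, with genes holding a peak, genes with eligible intron and peaks beside each bar, and the value over all coding genes (13.7 per Mb) as a dashed line. BMP signalling (105.9), the Polycomb and trithorax group (101.4), EGF receptor and Ras signalling (65.7) and the ecdysone response (39.6) stand highest, and ion channels (2.63) and insulator genes (0) lowest. The lists were chosen with earlier results of these data known, and their order was not tested.

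Among the 8 Hox genes, Antp, Ubx, Abd-B and pb itself held intronic peaks, 5 in all or 17.7 per Mb, and lab, Dfd, Scr and abd-A held none. Antp had 2 peaks, the stronger in intron 2 at chr3R:6914378-6914787 with ranks 873, 1041 and 1837. The peak in pb lay in intron 3 at chr3R:6723950-6724359, 17908 bp from the nearest start site, which is that of pb, and ranked 1420, 2338 and 4345. Replicate 2 and replicate 3 thus placed it lower than replicate 1, and replicate 3 placed it outside its 2740 highest ranked. The Abd-B peak ranked 977, 5479 and 785, and the Ubx peak ranked 2430 and 1775 in replicates 1 and 3, with no summit within 100 bp in replicate 2. Without replicate 1, 2 or 3, the count of Hox genes was 1, 3 and 2. With each peak given to the gene of the nearest coding start site, this count was 5. Of the TALE cofactors, hth held a peak in intron 6 at chr3R:10564266-10564675 that ranked 2439, 1167 and 1512 and lay 49805 bp from the nearest start site, the longest distance among all members, and exd held none.

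Summits in introns were AT-rich. The median GC content of the 201 bp around the summit was 37.3% for intronic peaks (quartiles 33.8 and 41.8%), against 40.3% both in flanking windows centred 1000 bp away and in eligible intron sequence. In each library's own highest ranked peaks, mean GC at intronic summits was 40.9%, 37.8% and 38.3%, against 44.2%, 40.3% and 41.2% at promoter summits, lower in introns in 3 of 3 libraries by 2.91 percentage points ± 0.42 (SD, n = 3). The exact sign-flip permutation test gave p = 0.25, the smallest that it can give with 3 libraries, or 0.75 adjusted by Benjamini-Hochberg over the 3 comparisons with promoter peaks. The surroundings differed too: 950 to 1000 bp before thresholded summits, mean GC was 40.15% for intronic and 44.4% for promoter peaks. The rule separates these classes by distance from start sites, so the lower GC than at promoter summits is no independent result. The dip was narrow: mean GC was 36.3% in the 50 bp before the summit and 43.7% at 150 to 200 bp before it. It was not particular to introns, as intergenic summits had 38.1% and 44.2% in the same bins. The median GC content at intergenic summits was 38.8%.

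A set of 18 known motifs was counted at intronic summits, and the exact test over 3 libraries could not have called any of them. Each was counted on both strands in the 201 bp around the summit and in both flanking windows. The homeodomain core TAATTA, a palindrome, was present in 89 of 666 members (13.4%, interval 10.9 to 16.2%), in 15.1% of flanking windows, in 12.2% of promoter summits and in 14.3% of eligible intron windows. The composite TGATNNAT was present in 10.5% of members and 13.9% of flanks. By library its difference from the flanks was -2.86 percentage points ± 0.50 (SD, n = 3), lower in 3 of 3 libraries, with the smallest possible permutation p of 0.25. It occurred in 14% of eligible intron windows and 11.0% of promoter summits. The TALE core TGACAG was present in 6.01% of members, 5.86% of flanks, 8.35% of eligible intron windows and 8.37% of promoter summits. By library it was higher than in the flanks in 3 of 3, by 0.94 percentage points ± 0.30 (SD, n = 3), and lower than at promoter summits in 3 of 3, with a difference of -1.34 ± 0.24 (SD, n = 3; exact permutation p = 0.25 for both).

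Motifs of core promoters were rare at intronic summits. The rule separates intronic from promoter summits by distance from start sites, so a lower share than at promoter summits is no independent result. The DRE core TATCGATA, bound by Dref, was in 0 of 666 members (which allows up to 0.552%), in 0.676% of their flanks and in 6.81% of promoter summits. In the libraries' own peaks its share at intronic minus promoter summits was -6.06 percentage points ± 0.47 (SD, n = 3; exact permutation p = 0.25). The Motif 1 core GGTCACAC, bound by M1BP, was in 0.601% of members, 0.375% of their flanks and 3.58% of promoter summits. Its share at intronic minus promoter summits was -2.81 percentage points ± 0.20 (SD, n = 3) in the libraries. The DRE and Motif 1 cores occur in 0.436% and 0.298% of eligible intron windows. The E-box CATATG, of the kind bound by Twist, was in 9.91% of members, 8.03% of flanks, 5.60% of promoter summits and 6.03% of eligible windows. The GAGA factor motif GAGAGAG was in 5.86% of members and 5.86% of flanks, against 2.66% of eligible intron windows, and in 7.96% of promoter summits. Against the flanks 4 motifs were higher and 4 lower in all 3 libraries, and the smallest adjusted p over the 36 exact permutation tests was 0.45.

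When all 2080 words of 6 bases were counted in the same windows, a word outside that set led. ACAGTG was present in 25.7% of members (interval 22.4 to 29.2%), in 8.93% of flanking windows and in 7.33% of eligible intron windows. Its difference from the flanks in the libraries was 15.2, 15.1 and 12.9 percentage points. Of all 6-base words, 27.2% were higher than in the flanks in all 3 libraries, and all 8 that contain CAGTG on either strand were. Of the 7 words that exceeded the flanks by more than 10 points, 4 contain it, and the next after ACAGTG was ACACTG at 20.1% of members and 6.83% of flanks. CAGTG was picked after these values were seen, with longer words that extend it also looked at, so its share in members is a description and was not tested.

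CAGTG was present within 100 bp of 378 of 666 intronic summits (56.8%, interval 52.9 to 60.6%), in 27.6% of flanking windows (interval 25.2 to 30.1%) and in 27.6% of eligible intron windows. The matches include the sites in CG11050, CG32772, NFAT, osa, Raf and Tlk printed above. More than 1 copy was found at 16.4% of summits and in 4.88% of flanks. In the libraries' own highest ranked intronic peaks the share was 56.9%, 56.0% and 49.6%, against 27.2%, 28.8% and 27.9% in their flanks. The share was like this in intron 1 (58.2%), in later introns (55.4%), on X (59.7%), on the autosomes (55.8%), within 2000 bp of a start site (59.4%) and beyond 10000 bp (53.6%).

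The share of summits with the word was higher in the stronger rank groups, and promoter and intergenic summits held it too. In successive rank groups of the combined list, from the strongest 500 to ranks 2001 to 2740, it was present at 68.5%, 60.0%, 62.3%, 54.3% and 44.5% of intronic summits. Below the threshold, where only the regions among a library's highest ranked peaks entered the counts of 6-base words, it was present at 46.3% of 585 summits at ranks 2741 to 5000, at 40.5% of 1318 at ranks 5001 to 10000, at 37.7% of 2755 at ranks 10001 to 20000 and at 35.8% of 3004 at ranks 20001 to 30000. The flanks of these groups stayed between 28.5% and 29.7%. Promoter summits held it at 48.8% with 32.3% in flanks, and intergenic summits at 52.8% with 27.7% in flanks. The excess over the flanks was thus 29.1 percentage points at intronic summits, 16.5 at promoter summits and 25.1 at intergenic summits, and these differences were not tested. With windows of 50 bp to either side, the library mean at intronic minus promoter summits was -1.28 percentage points, where it was 7.14 with 100 bp.

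**Figure D5:**
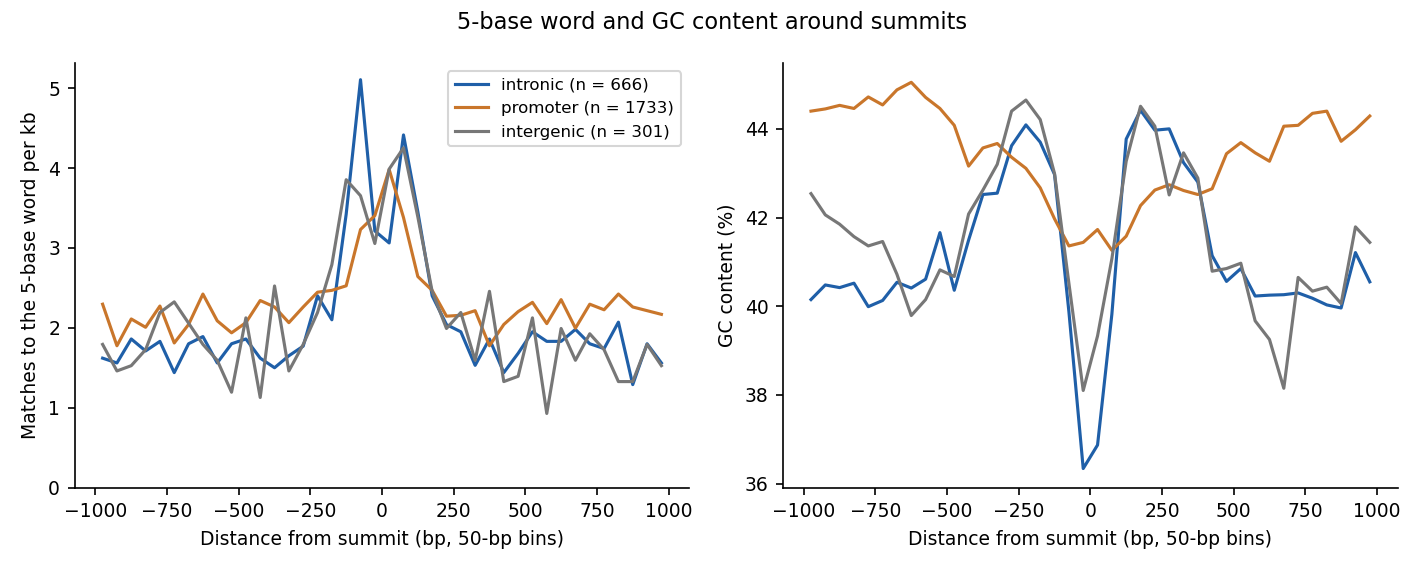
Matches to the 5-base word per kb (left) and mean GC content in percent (right) in 50-bp bins from 1000 bp before to 1000 bp after the summit, for intronic, promoter and intergenic peaks. At intronic summits the word reaches 5.11 per kb at 50 to 100 bp before the summit and 4.41 per kb at 50 to 100 bp after it, with 3.06 to 3.21 per kb at the summit itself, where GC content is lowest.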

How the data were processed

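Per the labels, 3 biological replicates of pb-GFP embryos were profiled by anti-GFP ChIP-seq. The authors deposited peak lists on dm6: 30000 regions per replicate, called on that replicate and 1 control, a combined list, and a list thresholded on the irreproducible discovery rate, per the deposited notes. Each region has the authors' signal value, whose normalization is not stated and which was used only as ranks within a list, and a deposited −log10 q value, at its ceiling for 1199, 1587 and 2523 regions of replicates 1, 2 and 3. For the aligner and the peak caller, name and version were not given in the sources used here. Read depth is unknown, so no counting error of reads is given, and intervals (exact Clopper-Pearson, 95%) cover the counting of peaks.

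Thresholded summits were classified on the Ensembl 115 annotation (FlyBase 6.54) and matched to replicate summits within 100 bp. Library values use each replicate's 2740 highest ranked peaks, which overlap between libraries, with exact 2-sided sign-flip permutation tests over 3 libraries. Scripts (Python 3.11.15, numpy 2.4.6, pandas 2.3.3, scipy 1.17.1, matplotlib 3.10.9) were tested on simulated summits. Genes were named by rule: hosts of the 15 strongest intronic peaks matched in all libraries, the 6 hosts with most peaks (7 with a tie), at most 3 genes per list, by best rank, the Hox genes, exd and hth, and the members nearest the distance limit. Members that complete a short list and the 6-base words were added after their values were seen. The members and the lists were chosen with earlier results of these data known. The dm3 lists were not used here. Alternatives were other distances, depths, windows, flanks and gene assignments, the 1370 strongest peaks, and leaving out each replicate. Chosen after seeing the data were the comparison with grid positions of eligible intron, the count of 6-base words and every alternative for CAGTG, the count without members near a non-coding start site, and, for the shares near start sites, in intron 1, on X and of hosts with a promoter peak, the stronger peaks and the left-out replicates.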

Additional observations from a re-analysis of the deposited data

How the results depend on the processing

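With start sites excluded to 500 or 2000 bp, intronic peaks were 30.9% or 17.1% of the list, and the 1370 strongest peaks held 336 of them. The share among the highest ranked peaks of all libraries was 35.6% with summits within 50 bp, 26.4% with the 1370 and 68.0% with the 5000 highest ranked peaks of each library, 82.1% for the 1370 strongest thresholded peaks, and 52.7 to 59.9% with a replicate left out, as fewer conditions or stronger peaks make it. The mean difference from promoter peaks in the share among a single library's highest ranked peaks was -0.22 in the main setting. It turned to 0.175 with 5000 peaks, 0.128 at 500 bp and 0.249 at 2000 bp, and ranged from -1.90 to 1.46 with a replicate left out. The difference in median rank ranged from -7.50 to 182.5 likewise. TAATTA against the flanks turned to 0.582 with 50-bp windows, 0.0539 with 1370 peaks and 0.730 with flanks at 2000 bp, and GGTCACAC to 0.00147 with 50-bp windows. Against promoter summits TAATTA turned to -0.758 with 200-bp windows, and TGATNNAT to 0.569, 0.845 and 1.74 with 50-bp windows, 200-bp windows and 5000 peaks, and ranged from -0.372 to 0.211 with a replicate left out. CAGTG turned to -1.28 with 50-bp windows. The cause was not tested. The difference in GC content kept its direction in all alternatives run, and was -0.87 with 200-bp windows. A replicate left out keeps only part of the members: the share with a promoter peak was then 29.6 to 31.5% of hosts and 11.4 to 12.6% of other genes, and with the 1370 strongest peaks 28.04% of hosts and 10.3% of other genes. Read depth is unknown, no control was analysed here, and the exact sign-flip test over 3 libraries cannot go below 0.25.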
